A study of Mus musculus with 57 samples.

Results

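The cells described here are 36 single RM1 tumour cells from mouse bone, 14 sorted as dormant and 22 as proliferating. They carried the tumour label and had few leukocyte genes above 0. RM1 is a mouse prostate cancer line, here carrying 2 label genes, eCFP (a cyan fluorescent protein) and Luc2 (a luciferase). The cells had been stained with PKH26, a membrane dye that thins with each division, before intracardiac injection into C57BL/6 mice. Dye-keeping cells (PKH+) were taken as dormant and dye-negative cells (PKH-) as proliferating, so both states carried the same label and the same injection. The 36 cells were selected on their own readout out of 57 in the deposited table, as those with eCFP of at least 100 normalised reads and fewer than 5 of 18 leukocyte genes above 0. Of the other 21 cells, 15 were labelled but leukocyte-rich and 6, all sorted as dormant, were under the eCFP minimum.

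The dormant cells came from 4 mice, with 2 cells each from mice 369 (day 17 after injection), 452 (day 16) and 1184 (day 15) and 8 from mouse 1185 (day 14). The proliferating cells came from 6 mice, with 10 cells from mouse 369, 4 from mouse 452, 3 each from mice 1185 and 360 (day 17), and 1 each from mice 268 (day 18) and 288 (day 13). Mice 369, 452 and 1185 thus gave both states. Cells of 1 mouse are not independent, so the mouse was the replicate, and a level below is the mean over a mouse's cells of log2(normalised reads + 1) unless normalised reads are named. Per the labels' protocols each library batch held 1 state, so the effects of batch and of state cannot be told apart. The labels do not give the batch of each cell.

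In dormant tumour cells of bone, division is paused while the cell stays alive, and release from that pause can seed growth later. Cells that divide build up transcripts of the mitotic machinery in G2 and M phase, and cells that have left the cycle lack them. Programmes often named with dormancy in bone are type I interferon signalling, with interferon receptors and their target genes, and niche signals through TAM receptors and TGF-beta, with the transcription factors Nr2f1 and Bhlhe41 downstream.

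The values the selection used show a clear gap for the label and none for the leukocyte count. eCFP ranged from 586 to 5256 normalised reads in the 36 cells, the highest cell under the minimum had 87.6, and the lowest leukocyte-rich labelled cell had 327. The leukocyte count ran from 1 to 4 genes in the cells described, with 10 cells at 4 (4 dormant and 6 proliferating), and 5 labelled cells stood just outside at 5 (1 dormant and 4 proliferating). Arhgdib, a gene of the list, was above 0 in all 36 cells, so it did not part cells. Cd53, another, was above 0 in 9 dormant and 8 proliferating cells, at up to 316 and 1373 normalised reads. The rule counts genes, not reads. Summed levels of the 18 genes were 935 to 4933 normalised reads in dormant and 764 to 10059 in proliferating cells. Leukocyte-free below means this count only. Luc2 and Krt8, an epithelial keratin, were not used by the selection. They ranged from 1994 to 26410 and from 87.8 to 24783 normalised reads and were above 0 in every cell, and Krt18, the partner of Krt8, was found in 14 of the 14 dormant and 20 of the 22 proliferating cells.

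Some libraries stood apart. The single cell of mouse 268 had 2399 genes above 0, against a median of 7398 over the 22 proliferating cells, and it forms the whole mean of that mouse. The single cell of mouse 288 is likewise the whole mean of its mouse. It had 5885 genes above 0 and the highest spike-in share of the 36 cells (18.3%). Cdc25b, Cdk2, Bbc3, Sesn2, Tyro3, Bhlhe41, Tgfbi, Slc16a3 and Efemp1, described below, were at 0 in both of these cells. A proliferating cell of mouse 452 held B cell transcripts, with 942 normalised reads of Cd79a, 688 of Ighm and 521 of Igkc, while the other 35 cells had at most 3.72 of any of them. Many results are therefore given also without mouse 268, some over means of at least 2 cells, and some without the B cell gene carrier. Means of at least 2 cells leave out mice 268 and 288. A value given only once can still move when any of these is left out. Of 19 monocyte and macrophage genes 11 were above 0 in some dormant and 14 in some proliferating cell, with summed levels per cell of 0 to 385 and 0 to 412 normalised reads, and the defining genes Adgre1 and Mpeg1 were at 0 in every dormant cell and above 0 in 1 proliferating cell each. Other members of that list were found in many cells, Cd68 in 9 dormant and 10 proliferating cells, Cd14 in 8 and 16 and Lyz2 in 7 and 13. Of 15 measured neutrophil genes, 8 were above 0 in some dormant and 9 in some proliferating cell, with sums of up to 35.3 and 401 normalised reads. S100a8 was above 0 in 2 dormant and 10 proliferating cells. Runx2, an osteoblast regulator, was above 0 in 10 dormant and 15 proliferating cells. Of 7 erythroid genes 4 were above 0 in each state, with sums of up to 88.8 and 111 normalised reads. The part of these transcripts in the results below was not tested.

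Reads recovered per cell ranged from 945351 to 5165965. The mean number of genes above 0 per mouse was 7511 ± 852 (SD, n = 4 mice) for the dormant state. It was 6395 ± 2354 (SD, n = 6 mice) for the proliferating state, 1116 fewer, with a two-sided exact permutation p of 0.531 (adjusted over 5 measures 0.938; the design allows no p under 0.0312). The other measures, reads, spike-ins detected, the spike-in share and the mitochondrial share, had exact permutation p values from 0.156 to 0.938. In mouse 369 some proliferating cells had 19 to 25 spike-ins detected and the others 43 to 45, while its dormant cells had 41 and 44. The part of this in the results was not tested.

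No gene passed the test between the states. Over all mice, limma called 0 of 10991 genes (0%) at an adjusted p under 0.05, with a smallest adjusted p of 0.999. At an unadjusted p under 0.05, 225 genes (2.05%) had a higher and 21 (0.191%) a lower dormant level. The mouse means of the states did not overlap for 47 genes higher (0.428%) and 10 genes lower (0.091%) in dormant cells. Mouse 268 moved these counts. The median difference over all genes was 0.56 with it and 0.10 without it, where the unadjusted counts were 142 higher (1.29%) and 85 lower (0.774%) and the counts without overlap 53 (0.483%) and 41 (0.373%). Taken over means of at least 2 cells, the median difference of all genes was -0.065. A positive difference was held by 68.8% of all genes over all mice, by 54.6% without mouse 268 and by 48.8% within the mice with both states, and counts of positive members below are to be read against these shares. A difference is the dormant minus the proliferating level, in log2(value + 1), which understates changes of low genes. Since cells at 0 count in a level, the share of cells with the gene is part of it. Within mice 369, 452 and 1185, with the mouse as a block, 0 of 10442 genes (0%) were called, and 129 (1.24%) higher and 142 (1.36%) lower genes had an unadjusted p under 0.05, around a median of -0.03. edgeR on the recovered reads called 0 genes, and its unadjusted p was under 0.05 for 91 higher and 79 lower genes.

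Mitotic genes varied widely among the dormant cells rather than sharing a common level. Of 46 G2/M and mitosis genes, all in the table and tested, single dormant cells had between 9 and 46 above 0 (median 26.5) and single proliferating cells between 4 and 46 (median 41.5). The 8 cells of mouse 1185 sorted as dormant had 9, 14, 16, 22, 24, 39, 41 and 46 of these genes. Both dormant cells of mouse 369 had nearly the whole set, with 44 and 46, those of mouse 452 had 18 and 29, and those of mouse 1184 had 20 and 46. A count of 30, chosen after the values were seen, parted them into 8 dormant cells with 9 to 29 genes and 6 with 39 to 46. On the same count 18 of 22 proliferating cells had 30 to 46 genes, and the other 4, with 4 to 17, were the cell of mouse 268 and 3 of the 4 cells of mouse 452. The dormant cells under the count had 5212 to 9191 genes of any kind above 0 (median 7334.5), against 4828 to 9618 (median 8424) in those over it. In proliferating cells these were 2399 to 6919 (median 5308) and 5240 to 10509 (median 7664.5), so the cells with few mitotic genes had fewer genes in all by the medians of both states, and the part of that in the split was not tested.

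**Figure D1:**
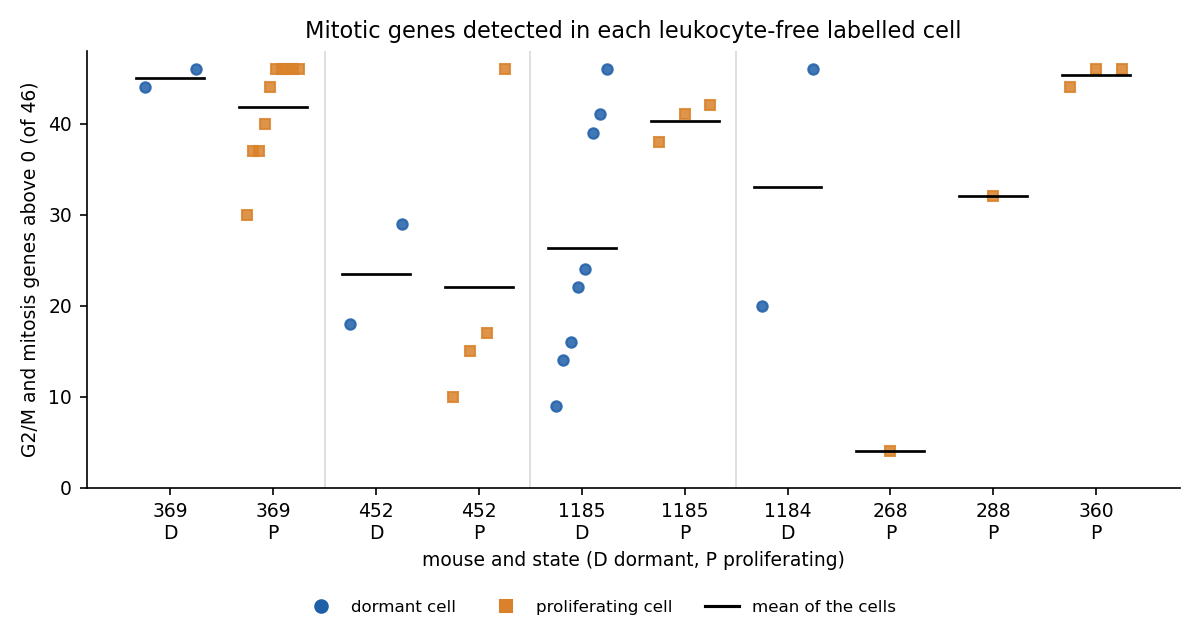
Number of the 46 G2/M and mitosis genes above 0 in each of the 36 cells (vertical axis), by mouse and state on the horizontal axis; circles are dormant cells, squares proliferating cells and bars the mean of the cells. Dormant cells reach from 9 to 46, both dormant cells of mouse 369 sit at 44 or more, and 3 of the 4 proliferating cells of mouse 452 sit at 17 or fewer.

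As a list, 31 of the 46 genes had a lower dormant level over all mice (median difference -0.56, against 0.56 for all genes tested), and 42 of 46 without mouse 268 (median -1.71, against 0.10). With means of at least 2 cells the list median was -1.91, against -0.065 for all genes. The list median was 0.73 in mouse 369, -1.95 in mouse 452 and -4.23 in mouse 1185, so the shared mice did not go one way. Over all mice 1 of the 46 genes had an unadjusted p under 0.05, Cdc25b, a phosphatase that triggers entry into mitosis, and it was on the higher side (background 2.05%). Without mouse 268 there were 6 lower genes (background 0.774%), Cenpe, Ccnb2, Cenpa, Kif20b, Birc5 and Ttk, and Cdc25b higher. None passed adjustment. The 6 genes other than Cenpe and Cdc25b are named because of these values.

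Promoters show the sequence setting of this group. Many late cell cycle genes are switched through a CHR element (TTTGAA) next to CCAAT boxes (CCAAT), which were searched on both strands in windows from 250 bases before to 50 after the start (RefSeq, GRCm38.p6). The CHR letters were in 29 of the 41 G2/M genes with a window (70.7%) and in 17.9% of all 32851 windows, and the CCAAT letters in 73.2% and 37.4%. Of these exact letters Mki67 carries both kinds. Cenpe, lower in dormant cells of 2 shared mice, and Cdc25b, higher in all 3, carry only the CCAAT letters in these windows. Variants of either element were not searched, so the lack of TTTGAA does not show that a CHR element is absent. The windows are chr7:135716330-135716629 on the minus strand for Mki67, chr3:135212313-135212612 on the plus strand for Cenpe and chr2:131186698-131186997 on the plus strand for Cdc25b. Capitals mark the matches.
Mki67: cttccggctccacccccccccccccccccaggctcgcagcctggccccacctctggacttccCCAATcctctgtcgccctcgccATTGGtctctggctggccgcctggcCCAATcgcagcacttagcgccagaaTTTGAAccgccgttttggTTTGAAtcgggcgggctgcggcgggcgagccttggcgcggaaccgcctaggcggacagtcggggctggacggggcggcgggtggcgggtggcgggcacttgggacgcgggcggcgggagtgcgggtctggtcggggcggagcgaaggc
Cenpe: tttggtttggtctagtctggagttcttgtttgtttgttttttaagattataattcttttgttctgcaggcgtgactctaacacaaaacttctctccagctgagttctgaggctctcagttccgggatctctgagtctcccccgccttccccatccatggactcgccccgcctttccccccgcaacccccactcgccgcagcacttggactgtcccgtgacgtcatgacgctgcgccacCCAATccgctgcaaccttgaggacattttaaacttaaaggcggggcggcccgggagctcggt
Cdc25b: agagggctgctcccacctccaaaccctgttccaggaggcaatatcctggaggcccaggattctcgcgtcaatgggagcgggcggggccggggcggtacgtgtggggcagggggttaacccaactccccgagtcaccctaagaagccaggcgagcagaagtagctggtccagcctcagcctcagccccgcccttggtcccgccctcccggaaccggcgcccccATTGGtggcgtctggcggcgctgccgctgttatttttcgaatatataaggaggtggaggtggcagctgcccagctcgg
A match is a description of letters, not evidence of use in these cells.

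Cenpe, a kinesin that holds chromosomes to the spindle (chr3:135212537-135273611), had dormant levels of 8.90, 0.67, 5.20 and 3.23 in mice 369, 452, 1184 and 1185. Its proliferating levels had a lowest of 1.63 (mouse 268), a median of 8.42 and a highest of 9.90. The groups overlapped, and only the dormant mean of mouse 369 reached the proliferating median. The difference was -3.06 ± 1.88 (SE, limma, unadjusted p = 0.118), and -4.25 without mouse 268. Cenpe was present in 7 of 14 dormant cells and 21 of 22 proliferating cells. Where it was above 0, the median was 574 normalised reads in dormant and 521 in proliferating cells, so the states differed more in how many cells had the transcript than in its level where present. Within the shared mice the differences were 0.08, -6.44 and -6.67 in mice 369, 452 and 1185 (mean -4.34 ± 1.40 SE, limma, unadjusted p = 0.00868, not called).

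Ccnb1, the cyclin that drives mitosis, had the same order of mice, with dormant levels of 11.78, 0.45, 6.32 and 5.54 in mice 369, 452, 1184 and 1185 and a proliferating range of 1.63 to 11.51 (median 10.27). The difference was -2.30 ± 2.12 (SE). Mki67, the proliferation antigen, was found in 8 of 14 dormant against 16 of 22 proliferating cells, and Top2a, which untangles sister chromatids, in 10 and 21. Their differences were -0.94 ± 1.85 and -0.89 ± 1.95 (SE). In mouse 1185 the differences of Mki67 and Top2a were -4.1 and -5.30, and in mouse 369 they were 0.48 and 1.48, so neither has 1 direction across the shared mice. Cdc25b was above 0 in 14 of 14 dormant and in 15 of 22 proliferating cells. Its dormant levels were 8.72, 5.89, 7.76 and 6.76 in mice 369, 452, 1184 and 1185, and its proliferating levels had a lowest of 0, a median of 4.01 and a highest of 6.18. The difference was 3.92 ± 1.66 (SE, limma, unadjusted p = 0.0278), and 3.24 without mouse 268 (unadjusted p = 0.0354). In mouse 452 it was 2.10, and 0.835 without the B cell gene carrier.

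The G1 and S phase genes also ranged widely between cells. Of 39 tested G1/S and replication genes, single dormant cells had 10 to 37 above 0 (median 27.5) and proliferating cells 3 to 39 (median 33.5). Dormant cells with fewer than 30 mitotic genes had 10 to 33 of the G1/S genes (median 23), and those with 30 or more had 13 to 37 (median 34.5). In proliferating cells these counts were 3 to 28 (median 11) and 20 to 39 (median 37). The G1/S median difference was 0.58 with mouse 268 and -0.48 without it. The replication helicase subunit Mcm7 was above 0 in all 36 cells, with a difference of -0.19 ± 0.79 (SE). The mitotic kinase Cdk1, above 0 in 12 of 14 and 20 of 22 cells, differed by 1.51 ± 1.67 (SE), and by -0.01 without mouse 268. Among 14 tested G1 cyclin, CDK and E2F genes 1 had an unadjusted p under 0.05, the S phase kinase Cdk2 (3.28 ± 1.56 SE, p = 0.0467, limma), higher in dormant cells of each shared mouse by 2.31, 2.43 and 2.65 (background 2.05%). Its unadjusted p was 0.0711 without mouse 268 and 0.0648 without the B cell gene carrier (limma). Its S phase partner Ccne1 was found in 2 of the 14 dormant and 12 of the 22 proliferating cells (difference -2.54 ± 1.49 SE). Ccnd1, the G1 cyclin, was above 0 in every cell and differed by -0.20 ± 0.89 (SE).

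Genes that hold cells out of the cycle had differences on both sides of 0. Of 19 tested inhibitor and quiescence genes 9 had a positive and 10 a negative difference, with a median of -0.10 and none at an unadjusted p under 0.05. Cdkn1a, which encodes p21, was above 0 in every cell. Its dormant levels were 9.41, 7.63, 8.70 and 8.81 in mice 369, 452, 1184 and 1185 and its proliferating levels 1.63 to 9.09 (median 7.98). Its difference of 1.52 ± 1.41 (SE) was 0.42 without mouse 268. Cdkn1b, which encodes p27, was present in 6 of 14 dormant cells and 7 of 22 proliferating cells (-0.44 ± 1.10 SE). Of 19 tested p53 targets 16 had a positive difference (84.2%, against 68.8% of all genes; median 0.79), and 13 without mouse 268 (68.4%, against 54.6%; median 0.18). Their median over means of at least 2 cells was 0.12, against -0.065 for all genes. Over all mice 2 of the p53 targets had an unadjusted p under 0.05 (background 2.05%). Bbc3, a death activator, was above 0 in 11 of 14 and 12 of 22 cells (2.74 ± 1.16 SE, p = 0.0278, limma, unadjusted), and Sesn2, a stress sensor, in 11 and 9 (3.01 ± 1.37 SE, p = 0.0394, limma, unadjusted). Without mouse 268 the unadjusted p was 0.0452 for Bbc3 and 0.0613 for Sesn2 (limma).

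The 12 genes with the smallest p among those higher in dormant cells of each shared mouse and over all mice were Iqcc, Ntn4, Lemd2, Rab3d, Ufl1, Tmem74, Nudt17, Fgf10, Pkp3, Paqr4, Rnase4 and Mob3c. Both p and sign chose them, so their direction is a description. They were found in 5 to 13 of the 14 dormant cells. All 12 were at 0 in the single proliferating cell of mouse 268, and all but Ufl1 (1.33) in that of mouse 288. Rab3d, a vesicle GTPase, was above 0 in 5 of 14 dormant and in 3 of 22 proliferating cells, and Ntn4, a netrin, in 5 and 3. Iqcc was above 0 in 11 and 7 cells, with dormant levels of 5.14, 3.54, 5.54 and 4.22 in mice 369, 452, 1184 and 1185 and proliferating levels of 0 to 2.05 (difference 3.88 ± 1.10 SE). Ufl1, the ligase that attaches the UFM1 modifier to proteins (chr4:25248600-25281821), was found in 12 of the 14 dormant and 6 of the 22 proliferating cells. Its dormant levels were 4.82, 8.28, 7.62 and 5.43 in the same order, and its proliferating levels had a lowest of 0, a median of 1.23 and a highest of 5.43 in mouse 360. The difference was 4.94 ± 1.48 (SE, limma, unadjusted p = 0.00303). Lemd2, an inner nuclear membrane protein, was above 0 in 13 of 14 and 12 of 22 cells (4.99 ± 1.45 SE), and Fgf10, a growth factor ligand of epithelium, in 12 and 12 (4.81 ± 1.51 SE).

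**Figure D2:**
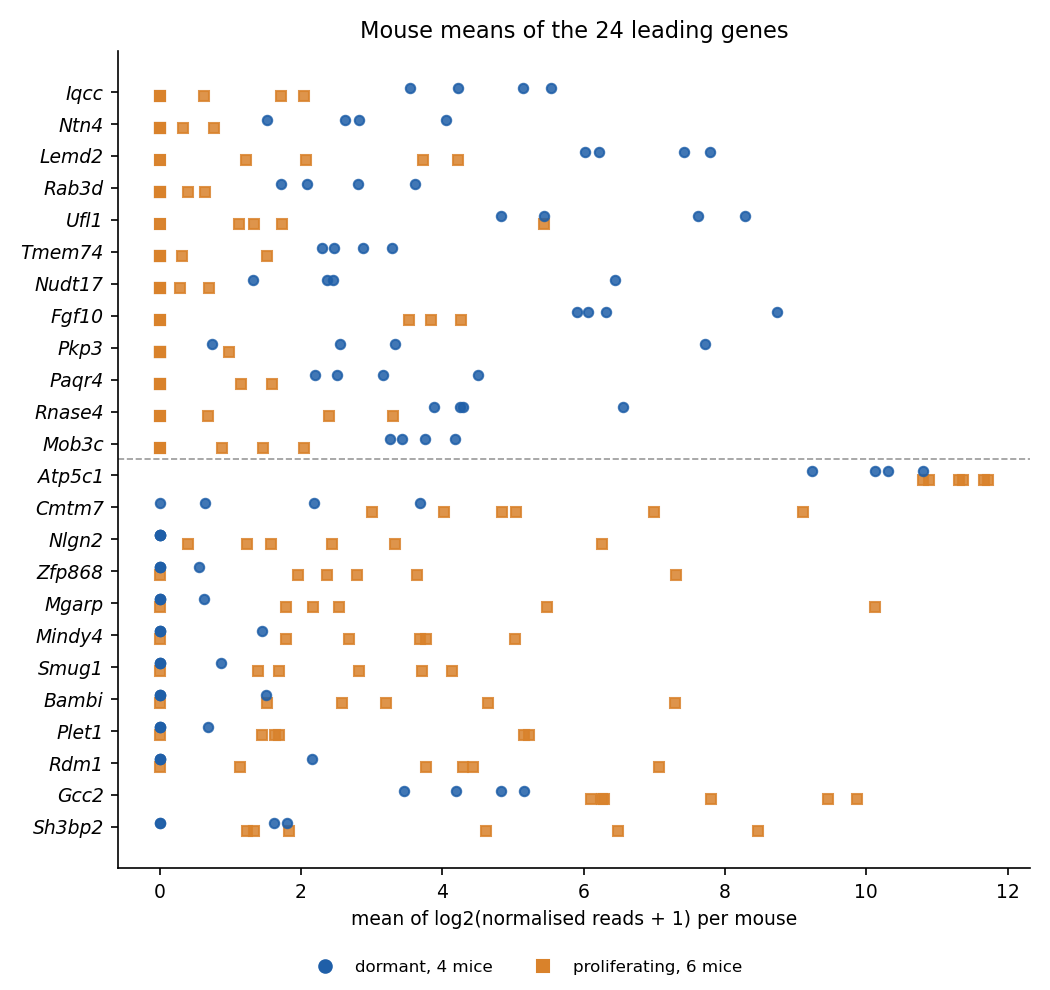
Mouse means of log2(normalised reads + 1) (horizontal axis) for the 12 leading genes higher and the 12 lower in dormant cells (above and under the dashed line); circles are 4 dormant and squares 6 proliferating mouse means. Many of the higher genes are at 0 in several proliferating mice, among them mice 268 and 288, each 1 cell. Most of the lower genes are at 0 in 3 or 4 dormant mice.

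The 12 leading genes on the lower side were Atp5c1, Cmtm7, Nlgn2, Zfp868, Mgarp, Mindy4, Smug1, Bambi, Plet1, Rdm1, Gcc2 and Sh3bp2. Atp5c1, the gamma subunit of the mitochondrial ATP synthase, was the one well-expressed gene among them. It was above 0 in 13 of 14 dormant cells, with 7 of 8 in mouse 1185, and in 22 of 22 proliferating cells. The cell at 0 counts in the level of mouse 1185. It had dormant levels of 10.30, 10.81, 10.12 and 9.23 in mice 369, 452, 1184 and 1185 and proliferating levels of 10.80 to 11.73 (median 11.34), with a difference of -1.18 ± 0.44 (SE, limma, unadjusted p = 0.014). Only the dormant mean of mouse 452 reached into the proliferating range. Cmtm7, a membrane protein, was present in 7 of 14 dormant cells and 19 of 22 proliferating cells (-3.88 ± 1.54 SE). Bambi, a decoy receptor of the TGF-beta family, was above 0 in 2 of 14 dormant cells, both of mouse 1185, and in 10 of 22 proliferating cells (-2.83 ± 1.27 SE). Gcc2, a golgin, was above 0 in 9 and 20 cells (-3.22 ± 1.5 SE), and Nlgn2 in 0 of 14 dormant cells and 8 of 22 proliferating cells.

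Interferon genes had no common direction. Of 47 listed type I interferon response genes 32 were tested, with 21 positive and 11 negative differences, a median of 0.22 (0.02 without mouse 268, and -0.74 within the shared mice, where 7 of 26 were positive) and none at an unadjusted p under 0.05 over all mice. Single dormant cells had 6 to 27 of the 46 genes in the table above 0 (median 11.5) and proliferating cells 2 to 36 (median 12). Irf7, the master regulator of the response, was above 0 in 1 of 14 dormant cells, at 57.9 normalised reads in mouse 1184, and in 5 of 22 proliferating cells, at up to 178 in mouse 369. Ifnar1, a receptor chain, was above 0 in 11 of 14 and 12 of 22 cells (2.43 ± 1.70 SE). Eif2ak2, a sensor of viral RNA, had the smallest p of the list (3.05 ± 1.53 SE, p = 0.0581, limma, unadjusted). Among 12 tested MHC class I genes the median was 0.19, and -0.67 without mouse 268. Within the shared mice 11 of these 12 were negative (8.33% positive, against 48.8% of all genes), with a median of -0.92. The MHC class I medians were -4.14, -0.55 and 0.92 in mice 369, 452 and 1185, and the interferon response medians -2.55, 0 and 0. B2m, the light chain, was above 0 in every cell, with dormant levels of 11.77, 11.89, 11.96 and 11.67 in mice 369, 452, 1184 and 1185 and proliferating levels of 11.14 to 13.21 (median 12.31). Its difference was -0.51 ± 0.33 (SE), and -1.0, -0.44 and -0.62 within mice 369, 452 and 1185 (-0.82 in mouse 452 without the B cell gene carrier). H2-K1, a heavy chain, was above 0 in 13 of 14 and 19 of 22 cells, with a difference of 0.76 ± 1.91 (SE), and -0.45 without mouse 268. It differed by -5.22, -2.985 and 5.48 in mice 369, 452 and 1185.

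**Figure D3:**
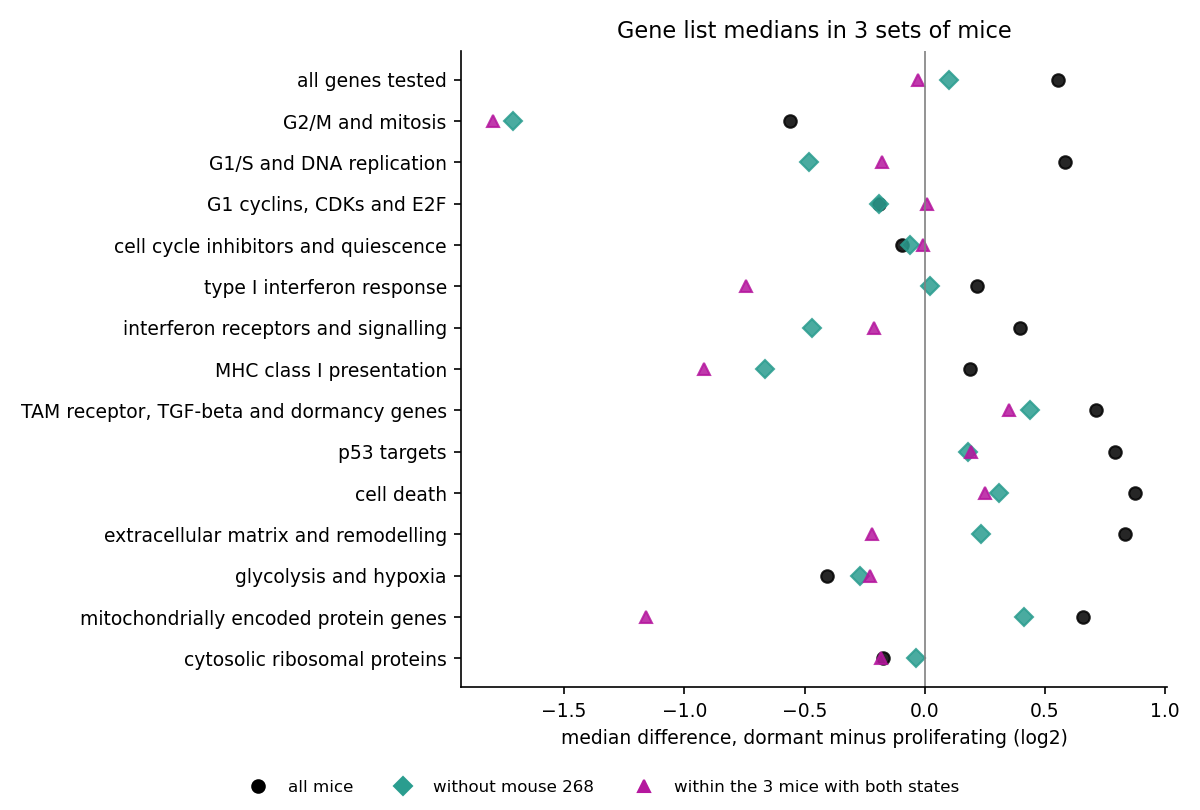
Median difference of the members of each gene list, dormant minus proliferating in log2 (horizontal axis), over all mice (circles), without mouse 268 (diamonds) and within the 3 mice with both states (triangles). The G2/M list lies lowest of the lists shown in the last 2 sets, at -1.71 and -1.79, and several lists change sign between the sets.

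Genes of the dormancy niche were positive about as often as all genes over all mice. Of 26 tested TAM receptor, TGF-beta and dormancy genes 18 had a positive difference (69.2%, against 68.8% of all genes; median 0.71, and 0.44 without mouse 268), and 2 had an unadjusted p under 0.05 on the higher side (background 2.05%). Without mouse 268 the positive share was 65.4%, against 54.6% of all genes, and within the shared mice 54.2%, against 48.8%. The list median over means of at least 2 cells was -0.04, against -0.065 for all genes. Bhlhe41, a repressor that restrains proliferation, was above 0 in 6 of 14 dormant cells, at 5.03 to 82.9 normalised reads, and in 1 of 22 proliferating cells, at 19.04. Its dormant levels were 1.93, 0, 1.72 and 2.19 in mice 369, 452, 1184 and 1185, and its only proliferating level above 0 was 0.43, in mouse 369 (difference 1.39 ± 0.57 SE, p = 0.023, limma, unadjusted). Tyro3, a TAM receptor, was above 0 in 6 and 2 cells (2.04 ± 0.88 SE, p = 0.031, limma, unadjusted). Without mouse 268 the unadjusted p was 0.0307 for Bhlhe41 and 0.0563 for Tyro3 (limma). Axl, the TAM receptor with the most reads here, was above 0 in 14 of 14 and 21 of 22 cells, and its difference of 1.95 ± 1.60 (SE) was 0.40 without mouse 268. Nr2f1 was above 0 in 6 and 9 cells (-0.20 ± 0.80 SE), and the ligand gene Tgfb2 in 2 dormant cells, at no more than 1.07 normalised reads, and 5 proliferating cells, at 10.4 to 72.4.

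Malat1 and Efemp1 were the genes called when mouse 369 was left out of the comparison within mice. Malat1, a nuclear long non-coding RNA (chr19:5795690-5802672), was above 0 in all 36 cells, from 416 to 25154 normalised reads in dormant and from 1.95 to 50422 in proliferating cells. Its dormant levels were 11.41, 12.81, 11.10 and 11.998 in mice 369, 452, 1184 and 1185, and its proliferating levels had a lowest of 1.63, a median of 9.23 and a highest of 11.22. The difference was 3.86 ± 1.79 (SE, limma, unadjusted p = 0.057), and 2.59 without mouse 268, and it was 0.50, 1.59 and 4.03 in mice 369, 452 and 1185. Without the B cell gene carrier, which had 101 normalised reads of Malat1, the proliferating level of mouse 452 was 12.74 in place of 11.22 and its difference 0.07 in place of 1.59. Efemp1, a fibulin of the extracellular matrix (chr11:28853204-28926743), was above 0 in 14 of 14 dormant and in 12 of 22 proliferating cells. Its dormant levels were 3.65, 11.14, 12.38 and 10.68 in the same order, and its proliferating levels were 0 in mice 268, 288 and 360 and at most 7.07, in mouse 369. Its difference over all mice was 6.31 ± 2.01 (SE, limma, unadjusted p = 0.00473). Mouse 369 went the other way, with a difference of -3.42, against 5.68 and 4.29 in mice 452 and 1185. Without the B cell gene carrier, in which Efemp1 was 0, the proliferating level of mouse 452 was 7.28 and its difference 3.86. In those 2 mice alone Efemp1 differed by 4.98 (limma, adjusted p = 0.0123) and Malat1 by 2.81 (adjusted p = 0.00929), on 1 residual degree of freedom before moderation. Both calls were lost without the B cell gene carrier, with differences of 4.07 for Efemp1 (limma, adjusted p = 0.94) and 2.05 for Malat1 (adjusted p = 1.0). Efemp1 is outside the rule for named genes and is given because of this call.

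**Figure D4:**
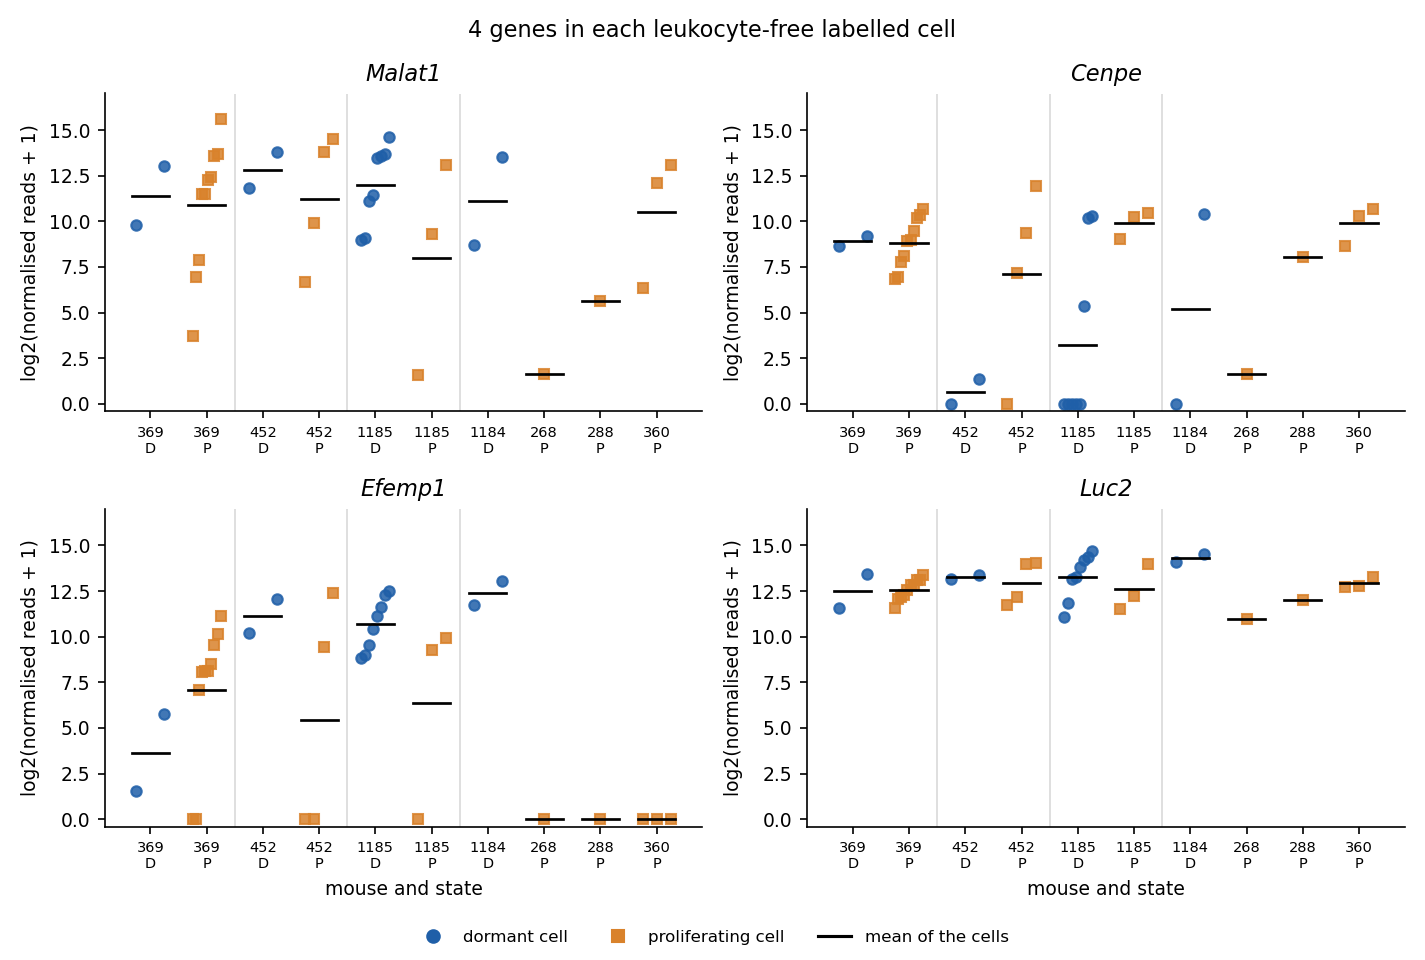
Log2(normalised reads + 1) of Malat1, Cenpe, Efemp1 and Luc2 in each of the 36 cells (vertical axes), by mouse and state; circles are dormant cells, squares proliferating cells and bars the mean of the cells. Efemp1 is above 0 in every dormant cell, lowest in the 2 of mouse 369, while Luc2 is above 0 in all 36 cells.

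Other matrix genes had differences on both sides of 0. Tgfbi, an adhesion protein of the matrix, had dormant levels of 0, 4.13, 9.48 and 7.76 in mice 369, 452, 1184 and 1185 and proliferating levels of 0 to 5.63 (3.63 ± 1.73 SE, p = 0.048, limma, unadjusted). Its unadjusted p was 0.0946 without mouse 268 and 0.0508 without the B cell gene carrier (limma). Col3a1, a fibrillar collagen, was at 0 in both dormant cells of mouse 369 and at 7.81, 8.05 and 8.13 in mice 452, 1184 and 1185 (3.43 ± 1.80 SE). Of the 24 tested matrix genes 18 had a positive difference over all mice (75%, against 68.8% of all genes; median 0.83, 0.23 without mouse 268 and -0.07 over means of at least 2 cells). Within the shared mice 18 of 23 were negative (median -0.22, and -0.50 without the B cell gene carrier). There 3 lower members had an unadjusted p under 0.05 (background 1.36%), the bone matrix protein gene Spp1 (-0.91, p = 0.00556, limma) and the metalloproteinase genes Mmp13 (-3.31, p = 0.0185, limma) and Mmp3 (-2.67, p = 0.0474, limma), and none passed adjustment. Slc16a3, the lactate exporter, had the smallest p of the 23 glycolysis and hypoxia genes (3.31 ± 1.25 SE, p = 0.0146, limma, unadjusted), was above 0 in 11 of 14 and 11 of 22 cells, and differed by -1.92 in mouse 369 against 3.81 and 3.504 in mice 452 and 1185. Of the list 8 genes had a positive and 15 a negative difference (median -0.41, and -0.14, -0.47 and 0.99 in mice 369, 452 and 1185), with the glycolytic enzyme genes Gapdh at -0.82 ± 0.49 (SE) and Pgam1 at -0.76 ± 0.39 (SE), which were -0.44 and -0.44 without mouse 268.

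Ribosomal protein genes had small differences over all mice. Of 78 cytosolic ribosomal protein genes 58 had a negative difference (median -0.17, and -0.03 without mouse 268), and 1 had an unadjusted p under 0.05, Rpl5 (-0.65 ± 0.29 SE, p = 0.0343, limma; background 0.191%). Within the shared mice 71 of the 78 were negative (8.97% positive, against 48.8% of all genes). The list medians there were 0.005, 0.30 and -0.92 in mice 369, 452 and 1185, so the mice did not go one way. Vim, an intermediate filament of mesenchymal cells, was above 0 in every cell and differed by -0.75 ± 0.40 (SE), and Luc2 by 0.99 ± 0.37 (SE, p = 0.0164, limma, unadjusted), which was 0.71 without mouse 268 and 0.30 within the shared mice. Of 13 tested mitochondrially encoded genes 12 had a positive difference over all mice (median 0.66), and within the shared mice all 12 tested there had a negative one (median -1.16), with -2.88, -0.59 and 0.41 in mice 369, 452 and 1185 (-1.42 in mouse 452 without the B cell gene carrier).

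The likeness of cells was similar within and between states. The median correlation of log2 values across tested genes was 0.54 for pairs of dormant cells of different mice, 0.55 for such pairs of proliferating cells and 0.55 for a dormant with a proliferating cell of another mouse. Within a mouse it was 0.55 for dormant pairs, 0.64 for proliferating pairs and 0.58 for mixed pairs. These correlations are across genes, share depth within a library and carry no test.

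Against the 15 leukocyte-rich labelled cells, no gene's state difference was shown to differ. The difference of differences was called for 0 of 11595 genes (0%, limma, smallest adjusted p 0.832), with 436 (3.76%) on the higher and 67 (0.578%) on the lower side at an unadjusted p under 0.05, around a median of 1.25, which was 0.67 without mouse 268. The median difference of the G2/M genes was -2.62 in the leukocyte-rich cells and -0.56 in the leukocyte-free cells, and that of all genes tested -0.75 and 0.56. Cenpe differed by -6.02 in the leukocyte-rich and -3.06 in the leukocyte-free cells, a difference of 2.96 ± 2.78 (SE, limma, unadjusted p = 0.297).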

How the data were processed

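Full-length RNA-seq libraries were made from single cells, with spike-in RNA added. The deposited values are a signal, normalised reads per gene and cell, which the authors scaled by BASiCS on the spike-ins, per the series text. STAR and RSEM are named in the submitters' processing notes, with the builds GRCm38 and mm10; their versions are not given in the sources used here. Every cell's values fell on a grid of 1 step per read (100% of the nonzero gene values, tolerance 0.01 reads), from which reads were recovered. The labels give each cell's state and mouse. Of 12887 gene rows 12852 matched a symbol, and the 118 spike-in rows were left out of the tests.

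Values were averaged per mouse and state as log2(value + 1), and genes found in 6 or more of the 36 cells entered limma 3.58.1 (trend, robust; Benjamini-Hochberg at 0.05), unblocked for all mice, and with mouse terms for the mice with both states. Pairing comes from the labels, as both states came from 1 animal; the paired means' deviations correlated at 0.273, 0.113 and -0.017 in mice 369, 452 and 1185. edgeR 4.0.16 and DESeq2 1.42.0 on reads summed per mouse were alternatives, beside other pseudocounts, filters, scalings, cell selections and left-out mice. Quality measures were tested by exact two-sided permutation of mouse means, with states swapped within shared mice and permuted among the others (32 arrangements). The scripts were tested on simulated data.

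Named genes were the 12 higher and 12 lower with the smallest p and 1 sign over all mice and in each shared mouse, up to 2 per described list, and a fixed set, not all of which are reported here. The members and gene lists were chosen with earlier results of these data known. Positions are from GENCODE (GRCm38). R 4.3.3 and Python 3.11.15 were used.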

Additional observations from a re-analysis of the deposited data

Results flagged for a closer look

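In 33 of 164 groups of 4 or 6 mouse means checked, 1 mean lay far from the others by Dixon's ratio at the 95% level. Chance alone flags about 1 in 20 such groups where values are normally spread. Many groups here hold means at 0, so that rate does not apply to them. Among the dormant means, that of mouse 1184 was the only one above 0 for Irf7 (2.94). Among the dormant means, that of mouse 1185 was the only one above 0 for Zfp868 (0.56), Mgarp (0.62), Mindy4 (1.45), Smug1 (0.87), Bambi (1.498), Plet1 (0.68), Rdm1 (2.16), Tgfb2 (0.25), Ccne1 (1.59), Psmb9 (0.25). Among the proliferating means, that of mouse 369 was the only one above 0 for Pkp3 (0.99), Bhlhe41 (0.43), Trim30a (1.33), Endog (0.88). The dormant mean of mouse 1184 stood apart for Rnase4 (6.55, others 3.88 to 4.29). The dormant mean of mouse 369 stood apart for Col3a1 (0, others 7.81 to 8.13), Pvt1 (4.21, others 6.34 to 6.68). The dormant mean of mouse 452 stood apart for Fgf10 (8.73, others 5.91 to 6.31), Rpa1 (4.84, others 8.72 to 9.42). The proliferating mean of mouse 268 stood apart for Cdk1 (0, others 6.76 to 10.41), Cenpe (1.63, others 7.11 to 9.90), Cdkn1a (1.63, others 7.63 to 9.09), Axl (0, others 7.93 to 10.84), Gapdh (16.48, others 13.86 to 14.62). The proliferating mean of mouse 288 stood apart for eCFP (9.41, others 10.18 to 10.51). The proliferating mean of mouse 360 stood apart for Ufl1 (5.43, others 0 to 1.73), Tgfb2 (4.03, others 0 to 1.04). The proliferating mean of mouse 369 stood apart for Slc16a3 (4.28, others 0 to 1.27). The proliferating mean of mouse 452 stood apart for Tmem74 (1.52, others 0 to 0.32), Tubb5 (9.86, others 11.05 to 11.53). Mouse 369 stood apart among the dormant means in recovered reads (1357684.5, others 2842568 to 3097049) and in the spike-in share (10.19%, others 0.72% to 2.24%). All these values are mean log2(normalised reads + 1) of 1 mouse unless reads or a share are named. The dormant mean of mouse 1185 is over 8 cells, and the other dormant means are over 2 each. The proliferating mean of mouse 369 is over 10 cells, and those of mice 268 and 288 are 1 cell each. The part of these cell numbers in the values above was not tested.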

How the results depend on the processing

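No gene was called over all mice under 25 of the 27 alternatives run. The exceptions were cells with 37 or more spike-ins, with 5 genes (Hsp90b1, Canx, Hif1a, P4hb and Calu, all lower, on 1 dormant mean), and DESeq2 on recovered reads, with 7 genes (Rab3d higher; Il15ra, Selp, Dclk1, Gbp3, Odf3l1 and P2ry10b lower, each at 0 in all dormant cells). Within the shared mice, leaving out 1 mouse gave 0 to 2 genes, and the 2, Efemp1 and Malat1, came without mouse 369. No replicate block there left 0 genes, where 94 higher and 82 lower genes had an unadjusted p under 0.05, and the block changed no call. Without the cell with B cell genes, an alternative chosen after seeing the data, no gene was called either, and the unadjusted counts within the shared mice were 86 higher and 169 lower. Leaving out that cell and mouse 369 together, also chosen after seeing the data, called none, and its unadjusted p was under 0.05 for 165 genes higher and 114 lower. The 24 leading genes kept their sign in every alternative that gave them a value, which their choice favours.

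These named genes changed sign, the mitotic genes Cenpe and Ccnb1 among them, in log2, and the cause was not tested. The limit of fewer than 3 leukocyte genes left dormant cells of mice 369 and 1185 only, and most proliferating means there were single cells. With fewer than 3 leukocyte genes, Krt8 gave -0.42, Mki67 2.12, Top2a 3.40, Ccnb1 2.81, Cenpe 1.55, Ifnar1 -1.85, Neat1 -0.89, Actb 0.16, Cflar -0.007 and Pvt1 -0.15. With 37 or more spike-ins, Mki67 gave 3.72, Top2a 1.42, Ccnb1 1.47, Cenpe 0.69, Mcm7 1.15, H2-K1 -3.76, B2m 0.23, Tubb5 0.33, Gapdh 0.24, Actb 1.09 and Rpl32 0.022. With fewer than 37, Cdkn1b gave 0.97. With the mouse as a fixed replicate block, which also leaves only the mice with both states, Cdk1 gave -0.14, Cdkn1b 0.60, Myc -0.007, H2-K1 -0.91 and Neat1 -0.85. Weighted by cells, Cdk1 gave -0.79, Cdkn1b 0.25, Irf7 -0.46 and H2-K1 -0.34. With means of at least 2 cells, Cdkn1b gave 0.075 and H2-K1 -0.086. From the log2 of mean values, Top2a gave 1.10 and Mcm7 0.00. With fewer than 8 leukocyte genes, H2-K1 gave -0.015, and rescaled by the median of ratios, Actb 0.027. edgeR gave Top2a 0.47, H2-K1 -1.20 and Actb 0.39 (without a filter 0.47, -1.21 and 0.39), and DESeq2 0.49, -1.18 and 0.37. Leaving out 1 mouse at a time moved Mki67 from -1.82 to 0.064, Top2a from -2.32 to 0.23, Cdk1 from -0.008 to 2.99, Mcm7 from -0.53 to 0.078, Ccnd1 from -0.43 to 0.13, Cdkn1b from -0.97 to 0.33, H2-K1 from -0.45 to 2.18, Nr2f1 from -0.48 to 0.41 and Actb from -0.39 to 0.20. It moved the state difference in spike-ins detected from -0.57 to 5.23, in the spike-in share from -4.39 to 0.25 points and in the mitochondrial share from -0.39 to 0.64 points.

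With 4 dormant and 6 proliferating means, 2 of them single cells, a gene at 0 in many cells gives a wide spread. Over all mice even a difference of 6.31 (Efemp1) was not called. The absence of calls therefore does not show that the states are alike.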

Other observations

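Among programmes not described above, the immediate early genes, which respond first to stimuli, had a median difference of 1.34 over all mice, with 13 of 17 tested genes positive (76.5%, against 68.8% of all genes), and 0.64 without mouse 268. RAS and MAPK feedback genes, which damp growth signals, had 17 of 21 positive (81%; median 1.14, and 0.39 without mouse 268). Nucleolar and MYC target genes had a median of 1.32, which was 0.08 without mouse 268, and lysosome and autophagy genes 1.09 and 0.21. In mice 369, 452 and 1185 the immediate early medians were -0.78, -0.56 and 2.74 (-0.99 in mouse 452 without the cell that held B cell genes). The median over all genes tested was 0.56 with and 0.10 without mouse 268, and no member of the immediate early or RAS and MAPK feedback lists had an unadjusted p under 0.05.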
